A study of Homo sapiens with 2 samples.

Results

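The genes described here are 57 reported or predicted targets of the let-7 microRNA family, chosen by name and without the HMGA, LIN28, IGF2BP, RAS and receptor genes. Of these, 54 had at least 1 probe set that names no other gene, out of 19775 genes named this way on the array, and MAP4K3, GDF6 and PGRMC1 were not analysed here. Their messenger RNA was measured in OECM1, a cell line of head and neck cancer, stably transfected with pmCherry-let7i, a vector that carries let-7i, and in OECM1 transfected with the pmR-mCherry empty vector. Both cultures were grown in RPMI with fetal bovine serum. The labels do not say whether either transfected line was 1 clone or a pool. Each group had 1 array, so no p-value was computed, no difference had a replicate check, and the effect of let-7i and any difference between 2 cultures of the line cannot be told apart.

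The let-7 microRNAs guide Argonaute proteins to messenger RNAs whose 3' untranslated region pairs with the seed of the microRNA, which lowers translation and often the amount of the messenger RNA. The family is known for restraining growth and the cell cycle, and its levels are often low in tumours. An array of this kind measures the messenger RNA alone, so repression of translation without loss of RNA is outside the measurement.

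The mature let-7i that the vector adds is given here beside 3 relatives, because a target of one family member is commonly a target of the others, through the shared seed. The sequences are from RefSeq (GRCh38.p14), in lower case, 5′ to 3′, with the seed (bases 2 to 8) in capitals.
hsa-let-7i-5p: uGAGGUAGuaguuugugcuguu
hsa-let-7g-5p: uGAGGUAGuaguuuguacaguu
hsa-let-7b-5p: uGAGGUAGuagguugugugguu
hsa-miR-98-5p: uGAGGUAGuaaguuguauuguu
The mature let-7i lies at chr12:62603691-62603712 on the plus strand. RefSeq lists 11 mature microRNAs from 14 genes with this seed, which pairs with CUACCUC in a target RNA. Over their 22 bases let-7g differs from let-7i at 2 positions, let-7b at 3 and miR-98 at 4, all outside the seed. The array does not read mature let-7i, and 0 probe sets were named for its gene, so the labels could not be checked by its level.

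Both arrays held 54675 probe sets, with a median MAS5 signal of 79.5 for let-7i and 88.0 for the empty vector. A probe set was called measured when its signal reached this median, used as a floor, on both arrays. A signal under the floor was raised to it, and the ratio is then a lower bound. A gene's ratio, let-7i over empty vector on a log2 scale, is that of its brightest probe set unless said otherwise. The spread of 1 probe set, taken from the 5807 genes with at least 2 measured ones, had an SD of 0.25 (log2). Sorted by signal, the dimmest 1452 of them had an SD of 0.34 and the brightest 1452 one of 0.15, and this spread covers probe noise only. The 3'/5' signal ratios of the control probe sets were 0.934 with let-7i and 0.948 with the empty vector for GAPDH, and 1.26 with let-7i and 1.21 with the empty vector for ACTB. Of 10 squamous epithelial markers 7 had a probe set of their own, among which KRT8, KRT18, EPCAM, CDH1 and SFN were above the floor on both arrays, while the basal keratins KRT5 and KRT14 were below it on both. Of those above the floor 4 of 5 were lower with let-7i, with log2 ratios of -0.71 for EPCAM and -0.42 for CDH1, and the summed signal of the 7 was 59256 with let-7i and 68008 with the empty vector. Of 8 fibroblast markers 3 (COL1A1, DCN and FAP) were above the floor, all higher with let-7i, with log2 ratios of 0.26, 0.98 and 0.77. The summed signal of the 8 was 1311 with let-7i and 904 with the empty vector. LUM, COL1A2 and COL3A1, which also mark fibroblasts, were below the floor on both arrays. Of the leukocyte markers 1 of 4 was above the floor (CD3E, near it), with the pan-leukocyte marker PTPRC below it, and of the endothelial markers 1 of 5 (PECAM1). The part of other cell types in the results below was not tested.

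The let-7 targets had no shared direction with let-7i. Of the 54 genes 51 were above the floor on at least 1 array, 49 of them on both. By the brightest probe set 31 were higher with let-7i (60.8%), against 48.7% of all 12284 genes above the floor, and 19 were lower (37.3%), against 49.8%, and the bound of CPEB1 gives no direction. Their median log2 ratio was 0.04, and that of all genes was -0.01. The middle 50% of their ratios ran from -0.15 to 0.15, and that of all genes from -0.21 to 0.17. A ratio within 0.25 of 0 was seen in 32 of the 49 measured on both arrays (65.3%), and in 62.7% of all genes so measured.

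Few of the targets differed by much. At 1.5-fold, 4 of the 51 (7.84%) were lower with let-7i, namely EDN1, DNA2, CPEB3 and PARD6B, where 5.93% of all genes were. BACH1 alone was 1.5-fold higher (1.96%), where 4.18% of all genes were. At 2-fold only EDN1 was lower, where 1.38% of all genes were, and 0 were higher, where 1.06% were. These shares of the members are near those of all genes. Next counted were the genes measured on both arrays that differed by over 2 times the spread of 1 probe set at their own brightness. Of 49 targets 6 were lower, where 7.2% of all genes were, and 2 were higher, where 6.89% were. With so few genes, neither count was read as a difference between the targets and all genes. Both directions together made 8 of 49 (16.3%), and 14.1% of all genes so measured. The 6 were EDN1, DNA2, CPEB3, PARD6B, VAV3 and GALNT1, and the 2 were BACH1 and XKR8.

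**Figure D1:**
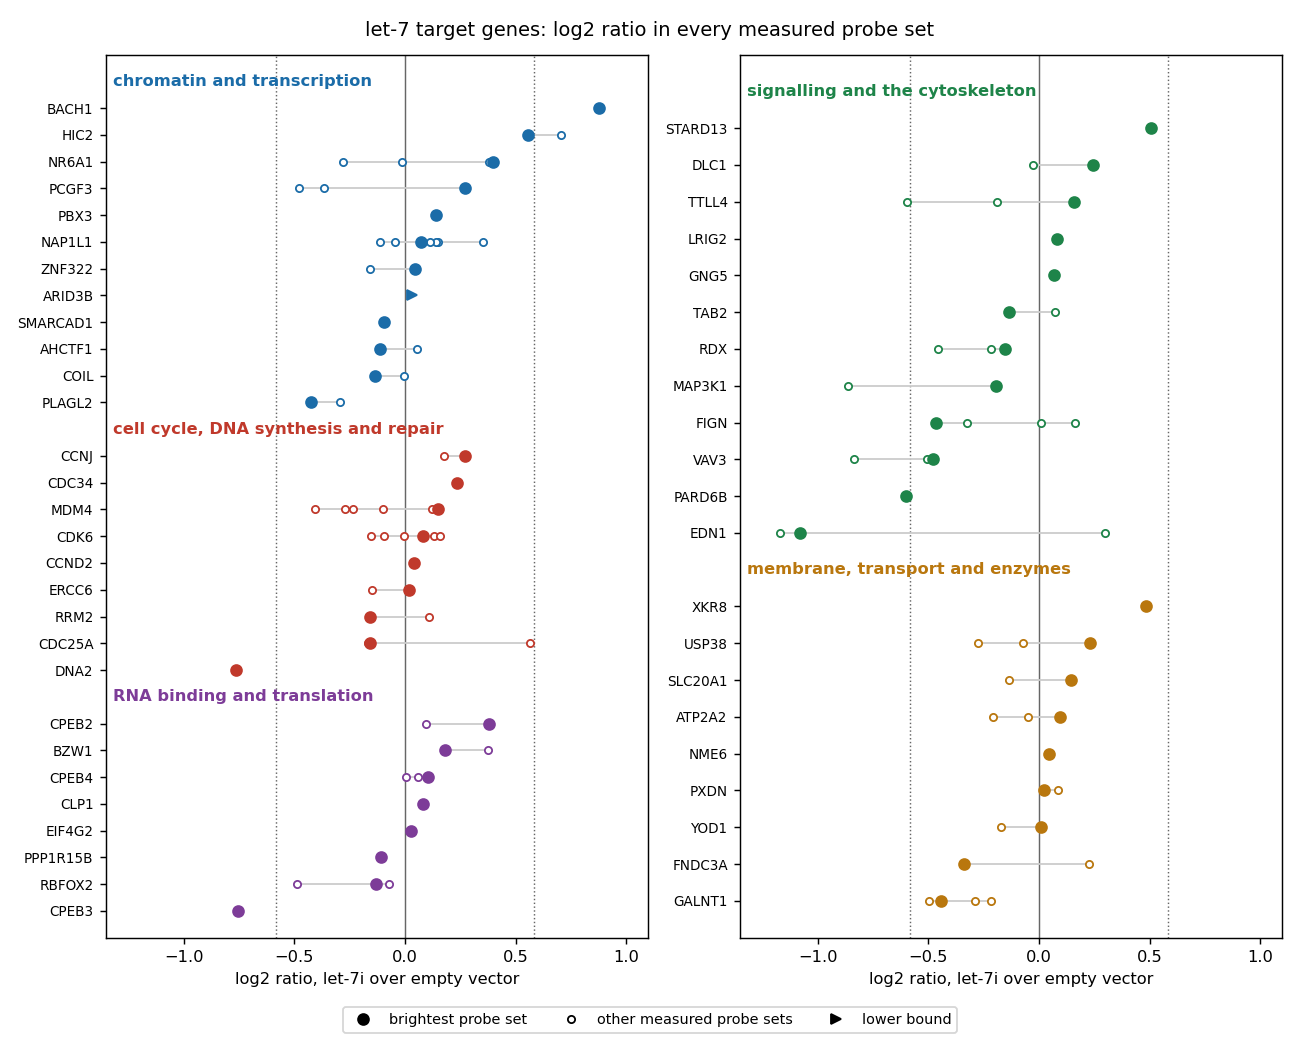
Log2 ratio (let-7i over empty vector, x axis) of each let-7 target gene above the floor except CPEB1, grouped by role. Filled points are the brightest probe set, open points the other measured probe sets joined by a line from lowest to highest, the triangle a lower bound, and dotted lines mark 1.5-fold. EDN1 lies farthest to the left at -1.08 and BACH1 farthest to the right at 0.88, and the lines of many genes cross 0.

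The direction of many targets, and of many other genes on the array, depended on which probe set was read. The 54 genes had 159 probe sets, of which 112 were measured, and 54 of these were higher with let-7i (47.4% of all 21442 measured probe sets were) and 58 lower (52.6% were), with a median log2 ratio of -0.01. Of the 34 targets with 2 or more measured probe sets, 14 had all of them on one side of 0 (41.2%), against 51.0% of the 5807 genes with as many. The 7 that were lower in every measured probe set were PLAGL2, COIL, RBFOX2, MAP3K1, VAV3, RDX and GALNT1. The 7 that were higher in every one were HIC2, CCNJ, CPEB2, CPEB4, BZW1, LRIG2 and PXDN. In the other 20 the probe sets pointed both ways. Of the 34 targets, 58.8% were higher with let-7i in the brightest probe set and 44.1% in the mean of their other measured ones. For the 5807 genes these shares were 50.7% and 43.8%, so dimmer probe sets read lower across the array too. Taking for each of 49 targets the mean over its measured probe sets, 23 were higher and 26 lower with let-7i, with a median of -0.03. A similar mean that also takes in bounds, centred anew, was higher with let-7i in 49.0% of the targets and in 48.9% of all genes.

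**Figure D2:**
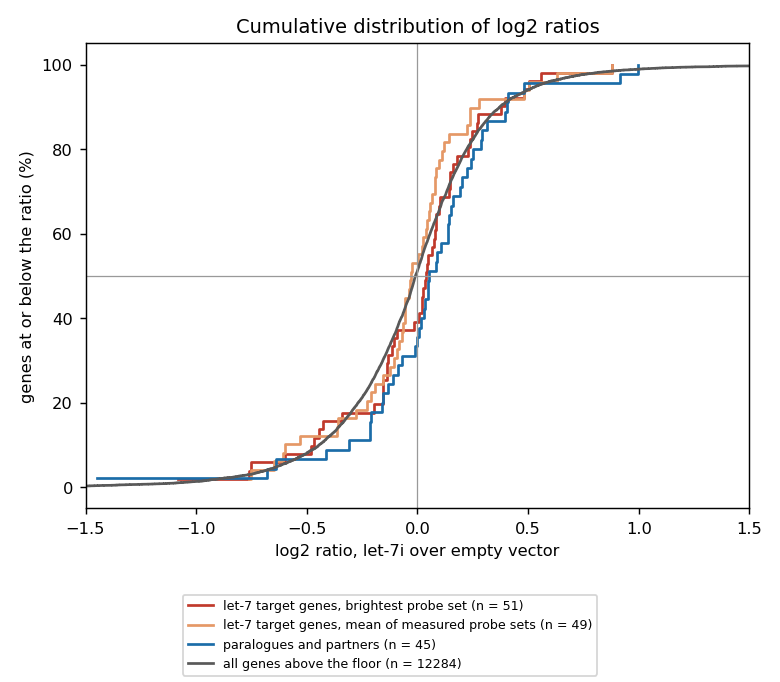
Cumulative share of genes (y axis, in %) at or below each log2 ratio of let-7i over empty vector (x axis). The curve of the 51 let-7 targets by their brightest probe set, with bounds at their bound, crosses 50% at 0.04, the curve of 49 targets by the mean of their measured probe sets at -0.03, and the curve of all 12284 genes at -0.01. Genes outside the axis limits are counted but not shown.

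Among the chromatin and transcription genes 8 of 12 above the floor were higher with let-7i (66.7%, where 48.7% of all genes were). The other 4 were lower (33.3%, where 49.8% of all genes were), and the median log2 ratio was 0.06. The role groups, here and below, are small, and their counts are not read as directions of a group. BACH1, a repressor that binds heme and holds back antioxidant genes, had a signal of 1175 with let-7i and 637 with the empty vector. It was 1.84-fold higher (log2 ratio of 0.88), which is 4.23 times the spread of 1 probe set at its brightness. Its other probe sets were below the floor on both arrays. HIC2, a zinc finger repressor, had signals of 232 with let-7i and 157 with the empty vector in its brightest probe set. Its next probe set read 197 with let-7i and 121 with the empty vector, so the log2 ratios were 0.56 and 0.70, both at dim signals. PLAGL2, a zinc finger activator, was on the other side, with 638 with let-7i and 854 with the empty vector. Both of its probe sets were lower, with log2 ratios of -0.43 and -0.30.

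NR6A1, an orphan nuclear receptor of germ cells and embryos, showed how probe sets can part. Its brightest read 187 with let-7i and 142 with the empty vector, a log2 ratio of 0.40, another gave 0.38, and the remaining measured ones gave -0.28 and -0.01. PCGF3, a subunit of Polycomb complexes, likewise had 0.27 in its brightest probe set and -0.37 and -0.48 in dimmer ones. ARID3B, a DNA-binding protein and a reported let-7 target, had a signal of 90.2 with let-7i and 30.8 with the empty vector, the second below the floor. Its fold was therefore at least 1.02 (log2 bound of 0.03), and with the floor lowered to the 25th percentile, below both signals, its log2 ratio is 1.56. E2F5, an E2F family factor that acts with pocket proteins, did not reach the floor on either array, with 38.3 with let-7i and 18.7 with the empty vector in its brighter probe set, and no fold is given. PBX3, a homeobox cofactor, had a log2 ratio of 0.14, the zinc finger protein ZNF322 of 0.05, the nucleosome remodeller SMARCAD1 of -0.09, the nucleoporin AHCTF1 of -0.11 and coilin (COIL), which marks Cajal bodies, of -0.14. NAP1L1, a histone chaperone with 7 measured probe sets, had log2 ratios between -0.11 and 0.35, with 0.07 in its brightest.

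Among the genes of the cell cycle, DNA synthesis and repair 6 of 9 were higher (66.7%, where 48.7% of all genes were). The other 3 were lower (33.3%, where 49.8% of all genes were), and the median log2 ratio was 0.04. DNA2, a helicase and nuclease that processes replication intermediates, differed most. It had signals of 1173 with let-7i and 1985 with the empty vector in its only probe set, a 1.70-fold lower level (log2 ratio of -0.76), or 3.67 times the spread of 1 probe set. No second probe set was at hand to set beside it.

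The cell cycle genes best known as let-7 targets differed little or in no one direction. CDK6, the kinase that pairs with D-type cyclins, had signals of 1679 with let-7i and 1580 with the empty vector, and its 6 measured probe sets were split evenly, 3 higher and 3 lower, between -0.16 and 0.16. CDC25A, the phosphatase that activates cyclin-dependent kinases, had signals of 410 with let-7i and 456 with the empty vector (log2 ratio of -0.16), while another of its probe sets read 330 with let-7i and 223 with the empty vector (0.56). CCND2, a D-type cyclin, was close to the floor, with 119 with let-7i and 115 with the empty vector, and its other probe sets were below it. CDC34, a ubiquitin-conjugating enzyme of the SCF complexes, had 1507 with let-7i and 1277 with the empty vector (0.24). RRM2, the small subunit of ribonucleotide reductase, was very bright, and its 2 probe sets pointed apart, with 18783 with let-7i and 20904 with the empty vector in one (-0.16) and 17306 with let-7i and 16014 with the empty vector in the other (0.11). MDM4, an inhibitor of p53, had 1831 with let-7i and 1649 with the empty vector in its brightest probe set (0.15), but 4 of its 6 measured probe sets were lower, down to -0.41. CCNJ, a cyclin, was higher in both measured probe sets (0.27 and 0.17), and ERCC6, a factor of transcription-coupled repair, had 0.02 and -0.15.

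Of the 9 RNA-binding and translation genes 5 were higher (55.6%, where 48.7% of all genes were) and 3 lower (33.3%, where 49.8% were). Their median log2 ratio was 0.03. The 4 CPEB proteins, which control the poly(A) tails and translation of messenger RNAs, did not share a direction. CPEB3 had signals of 106 with let-7i and 179 with the empty vector, 1.69-fold lower with let-7i (-0.75). These signals are dim, the difference is 2.24 times the spread of 1 probe set, and its other probe sets were below the floor. With the floor at the 65th percentile CPEB3 has no ratio. CPEB2 was higher, with 584 with let-7i and 448 with the empty vector (0.38) and a log2 ratio of 0.10 in a second probe set. CPEB4 had 727 with let-7i and 676 with the empty vector, with log2 ratios from 0.01 to 0.10 in 3 probe sets. CPEB1 read 87.2 with let-7i and 85.9 with the empty vector, at the floors themselves, so its direction is not given. EIF4G2, a relative of the scaffold eIF4G that supports cap-independent translation, had 20026 with let-7i and 19612 with the empty vector (0.03).

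BZW1, a translation regulator, was higher in both probe sets, with 15331 with let-7i and 13492 with the empty vector in the brighter (0.18) and 0.38 in the other. RBFOX2, a splicing factor active in epithelial and mesenchymal programmes, was lower in all 3 measured probe sets, from -0.49 to -0.07. PPP1R15B, which keeps the phosphatase PP1 on the initiation factor eIF2, had 3447 with let-7i and 3707 with the empty vector (-0.11), and the RNA kinase CLP1 had a log2 ratio of 0.08.

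Among the signalling and cytoskeleton genes, by the brightest probe set, 7 of 12 above the floor were lower with let-7i (58.3%, where 49.8% of all genes were). The other 5 were higher (41.7%, where 48.7% of all genes were), and the median log2 ratio of the group was -0.15. Of their 27 measured probe sets 17 were lower (63.0%, where 52.6% of all measured probe sets were). Across all the targets 8 measured probe sets were at least 1.5-fold lower (7.14%, where 5.85% of all measured probe sets were) and 2 at least 1.5-fold higher (1.79%, where 3.72% were), and 6 of the 8 belonged to this group. These came from EDN1, with more than 1, and from VAV3, PARD6B, MAP3K1 and TTLL4, the last 2 at dim signals. EDN1, the precursor of the peptide endothelin, had signals of 588 with let-7i and 1240 with the empty vector, a 2.11-fold lower level (-1.08) and over 5 times the spread of 1 probe set. Its second probe set read 485 with let-7i and 1089 with the empty vector (-1.17). The remaining, dimmer one went the other way, with 156 with let-7i and 126 with the empty vector (0.30), and the mean over the probe sets, after centring such means anew, was -0.63.

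VAV3 was lower in each of 3 probe sets. The signals were 1719 with let-7i and 2394 with the empty vector in the brightest, 818 with let-7i and 1160 with the empty vector in the next, and 465 with let-7i and 830 with the empty vector in the dimmest. The log2 ratios were -0.48, -0.51 and -0.84. PARD6B, an adaptor of the cell polarity complex with atypical protein kinase C, had 1651 with let-7i and 2495 with the empty vector, a 1.52-fold lower level (-0.60), in its only measured probe set. Without probe sets shared between transcripts, with the mean of a gene's probe sets or with the floor at the 25th percentile, its log2 ratio of -0.58 was just short of 1.5-fold. MAP3K1, a kinase upstream of JNK and ERK, had 1147 with let-7i and 1310 with the empty vector (-0.20), and a dim second probe set read 126 with let-7i and 229 with the empty vector (-0.86).

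**Figure D3:**
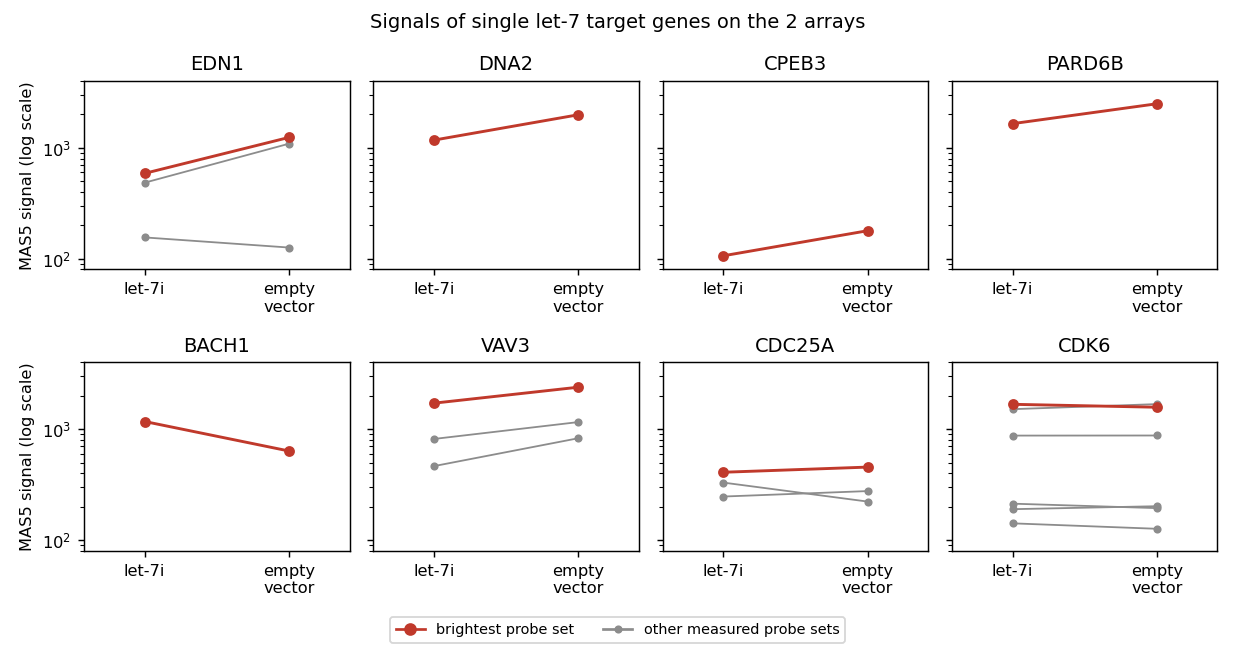
MAS5 signal (y axis, log scale) of every measured probe set of 8 let-7 target genes with let-7i (left of each panel) and with the empty vector (right). Red marks the brightest probe set and grey the others. VAV3 is lower with let-7i in all 3 probe sets and EDN1 in 2 of 3, BACH1 is higher with let-7i, and the lines of CDK6 stay nearly level.

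STARD13 and DLC1, which are paralogues, were on the higher side. STARD13 had 452 with let-7i and 318 with the empty vector (0.50) in its only measured probe set, at dim signals where the spread of 1 probe set is 0.34. DLC1 had 1229 with let-7i and 1034 with the empty vector (0.24), with -0.03 in a second probe set. FIGN, an AAA ATPase related to the microtubule-severing katanins, had 4 probe sets between -0.47 and 0.16, the brightest being the lowest. RDX, or radixin, which links actin to the membrane, was lower in all 3 measured probe sets, from -0.46 to -0.15. TTLL4, a tubulin polyglutamylase, had 0.16 in its brightest probe set and -0.60 in a dim one. TAB2, an adaptor of the kinase TAK1, had -0.14 and 0.07, LRIG2, a membrane protein with leucine-rich repeats, had 0.08 in 2 probe sets, and GNG5, a G protein gamma subunit, had 0.07. LIMD2, a LIM domain protein, reached the floor on neither array, with 17.0 with let-7i and 17.9 with the empty vector.

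Of the membrane, transport and enzyme genes 7 of 9 above the floor were higher by the brightest probe set (77.8%, where 48.7% of all genes were). The other 2 were lower (22.2%, where 49.8% of all genes were), and the median of the group was 0.04. Of their 20 measured probe sets, however, 11 were lower (55.0%, where 52.6% of all measured probe sets were). GALNT1, which starts O-linked glycosylation, had 1430 with let-7i and 1940 with the empty vector. It was lower in all 4 measured probe sets, with log2 ratios from -0.50 to -0.22. XKR8, a lipid scramblase that acts in apoptosis, had 934 with let-7i and 667 with the empty vector in its only probe set, a 1.40-fold higher level (0.48). FNDC3A, a protein with fibronectin type III domains, had -0.34 in its brightest probe set and 0.23 in the next. The deubiquitinase USP38 had log2 ratios of 0.23, -0.07 and -0.27, the phosphate transporter SLC20A1 of 0.15 and -0.14, and the calcium pump ATP2A2 of 0.10, -0.05 and -0.21. PXDN, a matrix peroxidase, had 0.02 and 0.08, the deubiquitinase YOD1 had 0.01 and -0.17, and NME6, a nucleoside diphosphate kinase family member, had 0.04. SYT11, a synaptotagmin, was below the floor on both arrays in its 3 probe sets, with 58.9 with let-7i and 42.2 with the empty vector in the brightest.

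**Figure D4:**
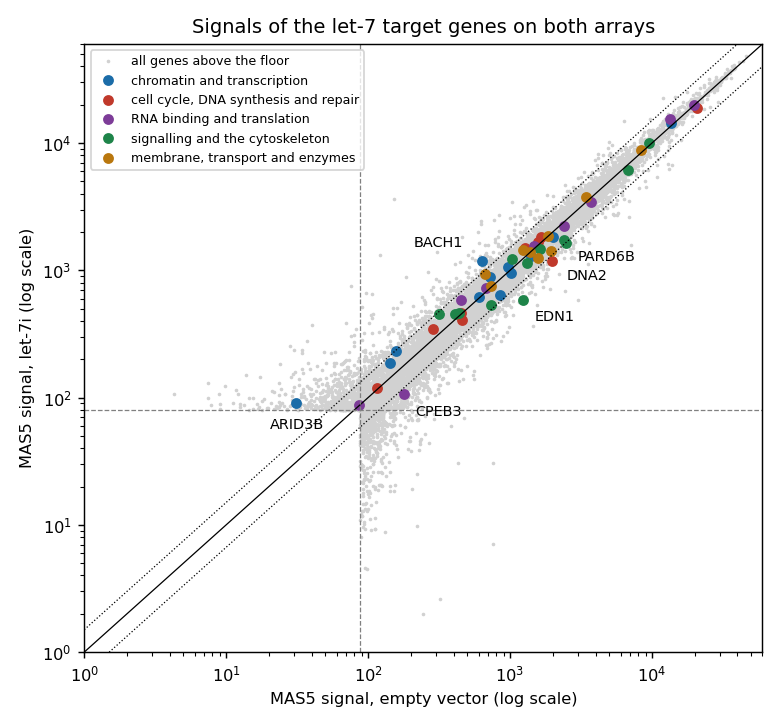
MAS5 signal with let-7i (y axis) against the empty vector (x axis), both on log scales, for the let-7 targets above the floor on at least 1 array (colours by role) and for all genes above the floor (grey). The solid line marks equal signals, dotted lines 1.5-fold and dashed lines the floors of 79.5 (let-7i) and 88.0 (empty vector). Most targets lie between the dotted lines, with BACH1 above them and EDN1, DNA2, CPEB3 and PARD6B below. ARID3B, drawn at its signals before the floor was applied, also lies above the upper dotted line, left of the empty vector floor.

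Paralogues and partners of the targets, 56 genes of the same families or complexes that are not among the 57, were set beside them. Of the 56, 53 had a probe set of their own. Of 45 above the floor 29 were higher with let-7i (64.4%, where 48.7% of all genes were) and 16 lower (35.6%, where 49.8% were). Their median log2 ratio was 0.05, and that of all genes was -0.01. PARD6A, a paralogue of PARD6B, had 72.8 with let-7i, below the floor, and 216 with the empty vector, so it was at least 2.73-fold lower (log2 bound of -1.45). The paralogue PARD6G had 196 with let-7i and 104 with the empty vector (0.91). PPP1R15A, the stress-induced paralogue of PPP1R15B, had 1364 with let-7i and 682 with the empty vector, and its 2 probe sets gave 0.997 and 1.003 on the log2 scale.

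Among the genes that make, load or act with let-7, 21 of 23 were above the floor. Of these 9 were higher with let-7i (42.9%, where 48.7% of all genes were) and 12 lower (57.1%, where 49.8% were). Their median log2 ratio was -0.03 (-0.15 with the mean of a gene's probe sets and also without shared probe sets). None was past 1.5-fold in its brightest probe set, where 4.18% of all genes were higher and 5.93% lower by that size. Dimmer measured probe sets were past it in both directions. Their log2 ratios were -1.60 for TNRC6A, -0.89 for DDX6, -0.61 for TUT7, -0.59 for TNRC6B, 0.76 for TNRC6C and 0.60 for TUT4. They were picked by size, and over the array 3.72% of measured probe sets were that much higher and 5.85% that much lower. Those of TNRC6A (80.9 with let-7i) and TNRC6C (90.9 with the empty vector) were close to the floor on 1 array. By the brightest probe set the largest ratio was that of DICER1, which cuts microRNA precursors, with 3608 with let-7i and 5018 with the empty vector (-0.48). Next was the terminal uridylyltransferase TUT7, with 1059 with let-7i and 1398 with the empty vector (-0.40). LIN28B, which blocks let-7 maturation, had 110.0 with let-7i and 143 with the empty vector (-0.38), close to the floor.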

How the data were processed

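Total RNA of 1 let-7i culture and 1 empty vector culture was labelled with biotin as cRNA, as the labels' protocols state. The authors deposited MAS5 signal intensities (1 colour, linear scale), per the submitters' processing notes, whose version and settings the sources used here do not give. Both arrays have a mean of 500.1 after trimming 2% at each end, so differences in total RNA per cell are not visible. Because MAS5 subtracts mismatch signal, dim values are noisy, and no detection calls were at hand. Precision is limited by the number of arrays.

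Gene names came from the platform annotation, checked through Entrez IDs against RefSeq (GRCh38.p14). Probe sets with several symbols (1801, of which 5 include a target) or not listed (11777) were left out. The floor was each array's 50th percentile over all probe sets, and log2 ratios were centred on the median of those measured on both arrays (0.0036). A gene below the floor on both arrays got no ratio. Calls were by size alone, at 1.5-fold and 2-fold. The members and lists were chosen with earlier results of these data known. All members are accounted for. Both signals are given for members past 1.5-fold, those with a bound, any whose probe sets lay at least 0.3 on both sides of 0 (none did), a panel of known targets and others added for their role. Of the paralogues and microRNA pathway genes the 3 largest ratios by the brightest probe set are named, and for the latter also dimmer probe sets past 1.5-fold. Alternatives were no centring, lowess centring, quantile normalization, a lower (25th percentile) and a higher (65th percentile) floor, the mean of probe sets, leaving out shared probe sets (_s_at and _x_at), only genes measured on both arrays, and 1 value per probe set. The steps were tested on simulated data. Software was pandas 2.3.3, NumPy 2.4.6, Matplotlib 3.10.9 and statsmodels 0.14.6 under Python 3.11.15.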

Additional observations from a re-analysis of the deposited data

How the results depend on the processing

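The median log2 ratio of the targets ran from 0.03 to 0.06 under the alternatives that read 1 probe set per gene. The mean of a gene's probe sets gave -0.003, with 25 targets higher (49.0%, where 48.9% of all genes were) and 26 lower. With 1 value per probe set, bounds included, 56 were higher and 58 lower. The measured ones among them had a median of -0.01. Of all measured probe sets 47.4% were higher and 52.6% lower. At least 1.5-fold higher were 2 of 51 targets with lowess centring, where 5.2% of all genes were. Quantile normalization also gave 2 of 51, against 5.1% of all genes, and the mean of probe sets 2 of 51, against 3.6%. The floor at the 25th percentile gave 3 of 53, against 9.5% of all genes. At least 1.5-fold lower were 4 of 51 targets with lowess centring and with quantile normalization, where 4.6% of all genes were in each. The mean of probe sets gave 4 of 51 lower (5.0% of all genes), and leaving out shared probe sets 3 of 41 (6.4%). The floor at the 65th percentile gave 3 of 46 lower (3.6%). The floor at the 25th percentile gave 3 of 53 lower, a smaller share than the 14.2% of all genes. That floor put 1 target (ARID3B) past 2-fold higher and gave a spread between probe sets of 0.39 (SD, log2). The mean of probe sets left 0 targets at least 2-fold lower, with EDN1 at -0.63. The log2 ratio of HIC2 was 0.005 with the floor at the 65th percentile, a bound there because that floor lies above its empty vector signal, and CPEB3 was below that floor on both arrays. DNA2, BACH1 and EDN1 stayed past 1.5-fold under the alternatives in which their ratio was recomputed, and so did CPEB3 wherever it had a ratio. No call changed sign. For these shifts the cause was not tested beyond what each alternative itself changes. No paired analysis was possible because each group had 1 array, and for the same reason no replicate could be left out. Signal near the floor limits ARID3B, E2F5, CCND2, CPEB1, CPEB3, LIMD2 and SYT11.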

Other observations

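A probe set annotated to the let-7d gene, looked at after its values were known, read 434 with let-7i and 631 with the empty vector, a log2 ratio of -0.54. It measures a longer RNA of that locus and not the mature microRNA.

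Of the 3 EDNRB probe sets, which report the endothelin B receptor and were looked at after their values were known, all were lower with let-7i, with signals of 230.2 with let-7i and 358 with the empty vector in the brightest and log2 ratios of -0.64, -0.35 and -0.91. ECE1, the endothelin-converting enzyme, had a log2 ratio of 0.14 in its brightest probe set, and its other measured probe set went the opposite way, with signals of 181.8 with let-7i and 447 with the empty vector (log2 ratio of -1.30).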
